A study of Rattus norvegicus with 20 samples.

Results

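Genes by which astrocytes are recognised, 10 in number, were followed through the hypothalamic arcuate nucleus of infant rats: Gfap, Aqp4, Aldh1l1, S100b, Gja1, Gjb6, Cd44, Lcn2, Serpina3n and Sox9. They were taken by symbol from the annotation of the array, where these 10 of 25926 gene names had 18 of 30367 probes. Of the 10 genes, 9 were bright enough in at least 1 condition to be tested, with 14 probes, among 17086 such genes in all. The exception was Serpina3n.

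The animals were Sprague-Dawley female rats killed on postnatal day 15 (P15), 4 in each of 5 conditions. In SNS the mothers received saline, and the pups had no spasms and were given saline. In all other conditions the mothers received betamethasone, a synthetic glucocorticoid, in 2 injections of 0.4 mg/kg on gestational day 15. BNS pups then had no spasms and received saline. BYS, BYA and BYP pups were given NMDA, a glutamate receptor agonist, from P12 to trigger spasms, and were treated with saline in BYS, with the hormone ACTH in BYA and with PMX53, an antagonist of the complement receptor C5ar1, in BYP. The labels start these treatments on P13, whereas the paper starts them on P12. Litters were culled to females, and no source used here says which pups of a condition were littermates, so the p-values measure only the spread between these samples.

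The arrays carried 2 different animals of 1 condition in their Cy3 and Cy5 channels, so replicates 1 and 2, and replicates 3 and 4, shared an array. The exceptions were BYA 3 and BYA 4, which lay on separate arrays beside animals named as SNS that are not among the 20 samples. Of the 20, no slide held more than 1 condition, and BYA 3 was the only one not on the slide of its group, so slide and condition cannot be told apart. The share of spots well above background, as a median over the samples of a condition, ran from 62.4% in SNS to 79.4% in BYS. For BYA 3 the dye named in the labels and the order of the animals in the name of its raw array disagreed, and the label was followed. If the name is right, the channel used holds an animal named as SNS, with M where the names of the females have F. Every result for BYA carries this doubt, also where BYA 3 is not named. Where the 4 levels of a condition are listed, they follow the order of replicates 1 to 4. Levels below are log2 of background-corrected and quantile-normalised intensities. A difference of 1 is a doubling on this scale, which understates changes of dim probes because 50 was added to each intensity. Levels of different probes cannot be set against each other.

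Astrocytes take up glutamate and potassium released by neurons, pass them through gap junctions to their neighbours and line blood vessels with endfeet rich in water channels. After seizures, injury or inflammation they can become reactive, a state for which higher levels of the intermediate filament Gfap and of the secreted protein Lcn2 are widely used as signs. In the arcuate nucleus they share the space with neurons that control feeding and with tanycytes, some of which also express Gfap. In tissue RNA, fewer astrocytes and less RNA per astrocyte cannot be told apart.

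The 3 members whose levels moved together most closely, Gfap, Lcn2 and Cd44, are shown first with their start regions, 250 bases before and 50 after the start of the gene in RefSeq, on the strand of the gene. The capitals mark ATAAA, the letters of a TATA-type box, which each of the 3 held, with its first base at -42 in Gfap, -37 in Lcn2 and -30 in Cd44, counted from the start of the gene. The window, 45 to 20 bases before the start, was set after these sequences had been read.
Gfap promoter, GRCr8 chr10:88361612-88361911, minus strand: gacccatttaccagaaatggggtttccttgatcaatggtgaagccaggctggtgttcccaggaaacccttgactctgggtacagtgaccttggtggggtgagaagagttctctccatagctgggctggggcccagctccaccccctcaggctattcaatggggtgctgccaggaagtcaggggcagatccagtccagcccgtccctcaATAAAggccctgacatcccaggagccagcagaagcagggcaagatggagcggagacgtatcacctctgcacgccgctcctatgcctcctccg
Lcn2 promoter, GRCr8 chr3:36081731-36082030, minus strand: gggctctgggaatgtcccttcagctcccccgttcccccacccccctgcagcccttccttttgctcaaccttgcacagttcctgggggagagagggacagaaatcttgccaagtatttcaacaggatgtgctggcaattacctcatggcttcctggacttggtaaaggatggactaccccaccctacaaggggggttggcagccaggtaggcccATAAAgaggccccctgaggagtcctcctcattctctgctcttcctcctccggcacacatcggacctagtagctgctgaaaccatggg
Cd44 promoter, GRCr8 chr3:109699375-109699674, minus strand: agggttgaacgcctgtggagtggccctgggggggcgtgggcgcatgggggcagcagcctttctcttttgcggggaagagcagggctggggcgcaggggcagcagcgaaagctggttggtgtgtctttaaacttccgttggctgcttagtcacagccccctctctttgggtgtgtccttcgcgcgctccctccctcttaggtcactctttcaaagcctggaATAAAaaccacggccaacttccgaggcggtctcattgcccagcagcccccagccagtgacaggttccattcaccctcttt
Start regions were listed for 9 of the 10 members, and Sox9 had none. Among all 33469 start regions 4.19% held ATAAA in this window. The letters TTCNNNGAA, read by STAT factors, were found on either strand in 8.87% of all start regions, and TGANTCA, read by AP-1, in 7.33%. The consensus of NF-kB was found in 0.362% and that of the glucocorticoid receptor in 0.439%. None of the 3 regions printed above held any of these 4 in exactly these letters, and looser forms, also of the NF-kB site, were not searched. Serpina3n held the STAT letters from -123 and the glucocorticoid receptor consensus from -78, and Gja1 held the AP-1 letters from -58. A match of letters is a description and not a binding site.

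The probes are shown because 2 probes of 1 gene did not always give the same result. The first 30 of their 60 bases, as deposited, are printed for Gfap, Lcn2, Gja1 and S100b. The 2 Sox9 probes are printed whole, since both lie in the coding sequence, and the first opens with the start codon.
Gfap A_44_P464502: agcaagacaaacattcagacagaaaggaaa
Gfap A_64_P049977: aggccacaaagtcacaagacatctcaaaag
Lcn2 A_42_P638620: caatgcattgacaactgaacagacggtgag
Gja1 A_44_P393551: acaaaaacaaaactcatcacagatgattga
S100b A_43_P15530: acagcgaatcgcggtttgttaccaagtacg
S100b A_64_P109327: atcaaaattctgctcagtagacgtctcctt
Sox9 A_64_P033293: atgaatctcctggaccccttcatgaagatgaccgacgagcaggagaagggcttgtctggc
Sox9 A_64_P033298: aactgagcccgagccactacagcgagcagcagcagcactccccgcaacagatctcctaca

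Gfap, Lcn2 and Gja1 differed over the 5 conditions in limma's F test, with adjusted p of 0.031, 0.0055 and 0.024, whereas the other 6 tested members did not pass. These are 3 of 9 members, where 30.3% of all genes passed the same test. With the array as a random block the adjusted p of this F test were 0.093 for Gfap, 0.041 for Lcn2 and 0.16 for Gja1. With channels only scaled to 1 median they were 0.075, 0.024 and 0.34, so of the 3 only Lcn2 passed in both. Gfap and Lcn2 were highest in BYP, while Gja1 was highest in BNS and lowest in SNS.

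**Figure D1:**
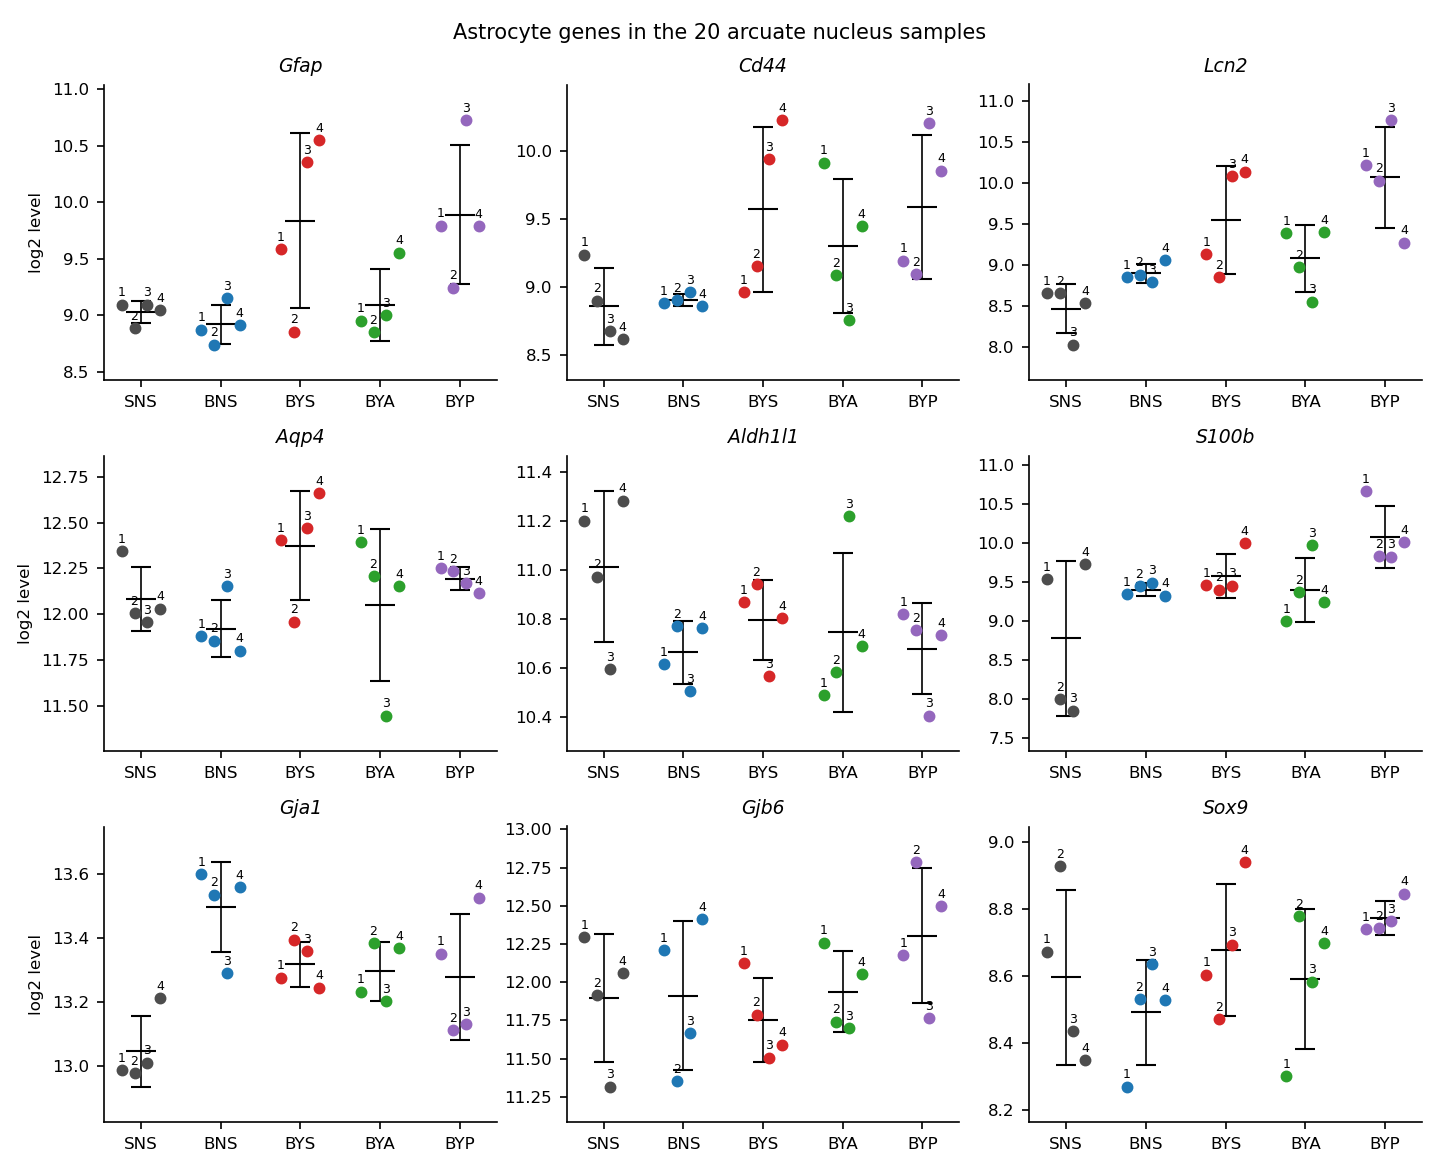
Log2 level (vertical axis) of the 9 tested members in every sample of the 5 conditions. Points are samples, numbered by replicate, and the bars show the mean and 1 SD of 4 samples. In Gfap, Cd44 and Lcn2 the samples BYS 3, BYS 4 and BYP 3 stand high, between 9.94 and 10.76, while BYS 2 lies with the animals that had no spasms.

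Gfap, the main intermediate filament of mature astrocytes, is given as the mean of its 2 probes. This mean varied less in the animals without spasms than in those with them. It measured 9.10, 8.89, 9.09 and 9.05 in SNS 1 to 4, and 8.87, 8.74, 9.15 and 8.92 in BNS. After spasms and saline, BYS measured 9.59, 8.86, 10.36 and 10.55. BYS 3 and BYS 4, which shared an array, were the high samples, and BYS 2 lay within the range of BNS. In BYA the levels were 8.95, 8.85, 9.001 and 9.56, and in BYP 9.79, 9.25, 10.73 and 9.79. In this mean of 2 probes all 4 BYP samples lay above all SNS and BNS samples, and only BYA 4 of the ACTH group did so.

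Tested with limma over all genes, Gfap was 0.86 ± 0.30 (SE) higher in BYP than in SNS, or 1.81-fold, with an adjusted p of 0.039. The same step from BNS to BYP was 0.97 ± 0.30, or 1.96-fold, with an adjusted p of 0.10, and from BNS to BYS it was 0.92 ± 0.30 with an adjusted p of 0.55. BYA was 0.75 ± 0.30 below BYS, with an adjusted p of 0.54, and BYP was 0.05 ± 0.30 above BYS, with an adjusted p of 0.99. The call against SNS rested on few samples: without BYP 3 the difference was 0.60 with an adjusted p of 0.15, and without any 1 of the SNS samples, or BYP 4, the adjusted p lay between 0.055 and 0.075. It was also lost, at 0.66 with an adjusted p of 0.11, when channels were only scaled to 1 median, and at an adjusted p of 0.088 with the array as a random block.

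Both probes of Gfap had the same 3 samples at the top, BYS 3, BYS 4 and BYP 3. The 10-spot probe A_44_P464502 measured 11.10 and 11.40 in BYS 3 and BYS 4 and 11.24 in BYP 3, against 9.30 to 10.46 in the 8 samples of SNS and BNS. On it BYP 2 and BYP 4, at 9.85 and 10.03, lay below SNS 1 at 10.46 and BNS 3 at 10.16, so BYP overlapped both groups. The single-spot probe A_64_P049977 measured 9.61, 9.71 and 10.21 in the same 3 samples, against 7.73 to 8.47 in SNS and BNS, where only 2 of the 4 SNS samples were well above background. SNS 1 was the highest SNS sample on the 10-spot probe and the lowest on the single-spot one, so the mean evens it out. The SD on the 10-spot probe was 0.40 in SNS and in BNS, 0.39 in BYA, 0.81 in BYS and 0.63 in BYP. Fitted by itself, the single-spot probe differed between BYP and SNS by 1.17 ± 0.34, with an adjusted p of 0.014, and the 10-spot probe by 0.54 ± 0.32, with an adjusted p of 0.20.

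Lcn2, lipocalin 2, is a secreted binder of iron-carrying siderophores that reactive astrocytes release. It measured 8.65, 8.65, 8.03 and 8.53 in SNS, where 2 of 4 samples were well above background, and 8.85, 8.88, 8.79 and 9.06 in BNS. BYS measured 9.13, 8.85, 10.08 and 10.14, BYA 9.39, 8.97, 8.55 and 9.40, and BYP 10.22, 10.03, 10.76 and 9.27. The BYP samples all lay above the samples without spasms, and in BYS the 2 high samples were again BYS 3 and BYS 4. Against SNS, Lcn2 was 1.60 ± 0.30 higher in BYP, or 3.04-fold, with an adjusted p of 0.00091, and 1.08 ± 0.30 higher in BYS, with an adjusted p of 0.014. The second adjusted p was 0.058 without BYS 3, 0.0501 without BYS 4, 0.061 with the array as a random block and 0.097 on the processed signals. With prenatal betamethasone in both groups, BYP was 1.17 ± 0.30 above BNS, or 2.26-fold, with an adjusted p of 0.058. This value lies at the threshold: it was 0.026 without BYP 4, 0.045 without BYS 2, 0.046 without BYS 4 or BYA 3, and 0.83 when channels were scaled to 1 median. Lcn2 in BYP lay 0.99 ± 0.30 above BYA, with an adjusted p of 0.17, and 0.52 ± 0.30 above BYS, with an adjusted p of 0.69.

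Cd44, a hyaluronan receptor of the cell surface, is expressed by fibrous and reactive astrocytes and by many immune cells. Of its 4 probes only 1, A_64_P080817, was kept, and 2 of the others were well above background in no sample. Its levels were 9.24, 8.90, 8.67 and 8.62 in SNS, and 8.88, 8.90, 8.96 and 8.86 in BNS, an SD of 0.045. They were 8.96, 9.15, 9.94 and 10.23 in BYS, 9.92, 9.09, 8.76 and 9.45 in BYA, and 9.19, 9.09, 10.21 and 9.86 in BYP. The BNS samples were close together and the samples with spasms were spread over more than 1 log2 unit. Cd44 lay 0.69 ± 0.29 higher in BYP than in BNS and 0.67 ± 0.29 higher in BYS than in BNS, with adjusted p of 0.22 and 0.67, so neither passed. All BYP samples lay above the range of BNS, and so did all BYS samples, although BYS 1 and BNS 3 were equal at 2 decimals (8.96).

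The 3 genes moved together from sample to sample. Over the 20 samples Pearson's r was 0.80 for Gfap and Lcn2, 0.78 for Gfap and Cd44, and 0.76 for Cd44 and Lcn2. These are descriptions, since samples of 1 array and of 1 condition are not independent. Between BYS 1 and 2 on the one array and BYS 3 and 4 on the other, animal and array cannot be told apart. The genes whose pattern was most like that of Gfap over the 20 samples were Hmox1, the enzyme that degrades haem (r = 0.91), Bcl3, a nuclear partner of NF-kB (r = 0.91), Timp1, an inhibitor of metalloproteinases (r = 0.90), Tubb6, a tubulin (r = 0.89), and Trim47 (r = 0.87).

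Timp1 had 12.45, 11.51, 13.48 and 12.60 in BYP and 10.97, 10.696, 13.14 and 12.92 in BYS. In BNS it lay between 11.04 and 11.39. BYS 3 and BYS 4 thus stood about 2 log2 units above BYS 1 and BYS 2 in this gene too. Bcl3 measured 8.14, 8.01, 10.89 and 10.65 in BYS, and 9.68, 9.39, 11.66 and 10.28 in BYP. In BNS it lay between 8.125 and 8.52. The differences from SNS to BYP ran from 0.91 ± 0.33 in Trim47 to 1.95 ± 0.55 in Bcl3, and those from BNS to BYP from 1.21 ± 0.33 in Trim47 to 1.98 ± 0.55 in Bcl3. These genes were picked for their likeness to Gfap in the same samples, so their differences are a description and no test is given here. Timp1 is also on the pan-reactive list, and its call from SNS to BYP is counted there.

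**Figure D2:**
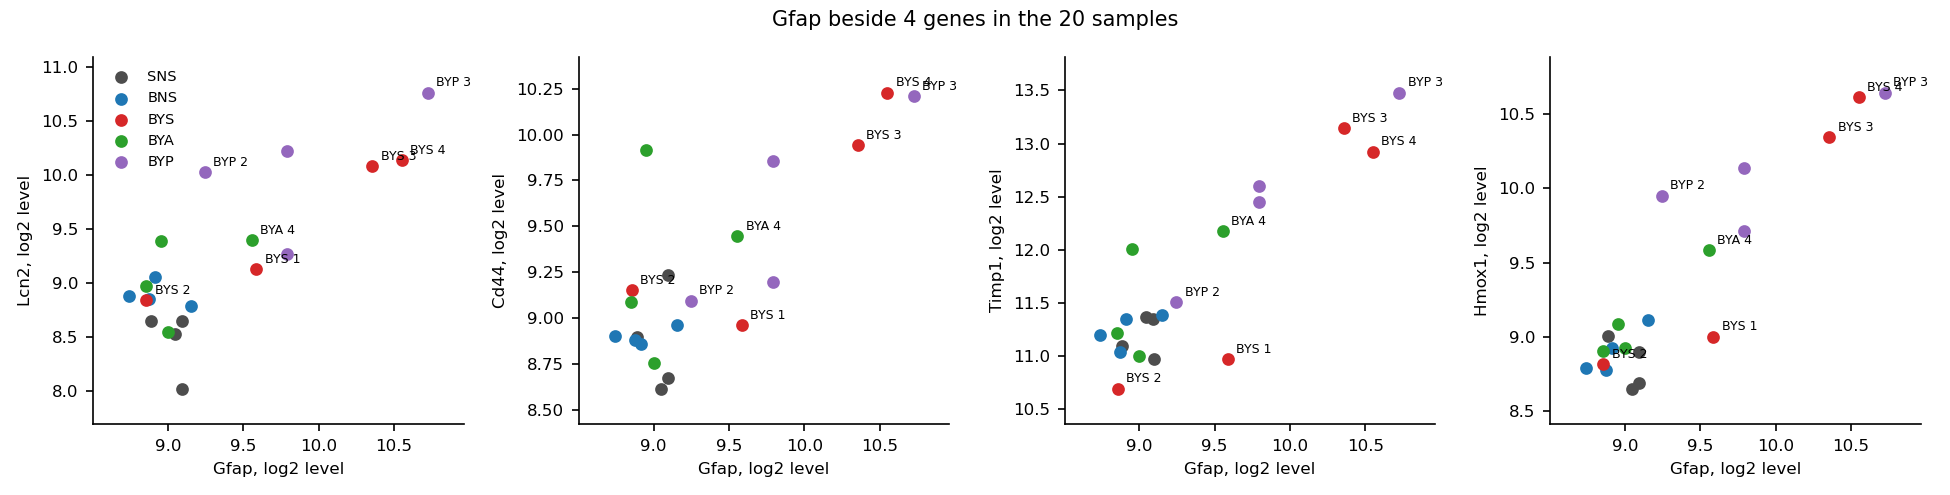
Log2 level of Lcn2, Cd44, Timp1 and Hmox1 (vertical axes) against that of Gfap (horizontal axis) in the 20 samples, coloured by condition, with some samples named. BYP 3, BYS 3 and BYS 4 lie at the upper right of all 4 panels, and BYS 2 lies at the lower left, with or below the samples without spasms in Timp1 and Hmox1.

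Serpina3n, a secreted protease inhibitor that is among the genes most raised in reactive astrocytes, was at the limit of what the array saw. Its 1 probe, A_44_P1000653, was well above background in 0 of 4 SNS, 2 of 4 BNS, 3 of 4 BYS, 0 of 4 BYA and 0 of 4 BYP samples, and its level ran from 7.23 to 7.89 over all 20. With no filter on dim probes no comparison passed, and the lowest adjusted p was 0.18.

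Gja1 encodes connexin 43, the main gap junction protein of astrocytes. It measured 12.99, 12.98, 13.01 and 13.21 in SNS and 13.60, 13.53, 13.29 and 13.56 in BNS. BYS measured 13.27, 13.39, 13.36 and 13.24, BYA 13.23, 13.38, 13.20 and 13.37, and BYP 13.35, 13.11, 13.13 and 13.52. The SNS samples lay below all BNS and BYS samples. Prenatal betamethasone without spasms went with a level 0.45 ± 0.10 higher than in SNS, or 1.37-fold, with an adjusted p of 0.0027, and BYS was 0.27 ± 0.10 higher than SNS, with an adjusted p of 0.048.

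Part of this difference came from 1 place on the array. The Gja1 probe was printed 10 times, and 1 of these spots read 11.66 to 11.80 in all 4 SNS samples and 13.35 to 13.80 in all other samples, while the remaining spots in SNS ran from 12.47 to 13.91. The SD over the spots was 0.62 to 0.67 in each SNS sample and 0.14 to 0.35 in the other conditions. Without that spot, an alternative chosen after seeing the data, BNS was 0.27 ± 0.10 above SNS, with an adjusted p of 0.047, and BYS was 0.09 ± 0.10 above SNS, with an adjusted p of 0.53. The BNS difference was 0.01, with an adjusted p of 0.98, when channels were only scaled to 1 median, and 0.30, with an adjusted p of 0.073, on the processed signals of the scanner software. The remaining spots did not give 1 answer either. Spot 4 read 12.57 to 13.06 in SNS and 13.15 to 13.42 in BNS. Spot 9 read 13.46 to 13.91 in SNS and 13.51 to 13.91 in BNS. The difference left without the low spot thus also depended on the spot.

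**Figure D3:**
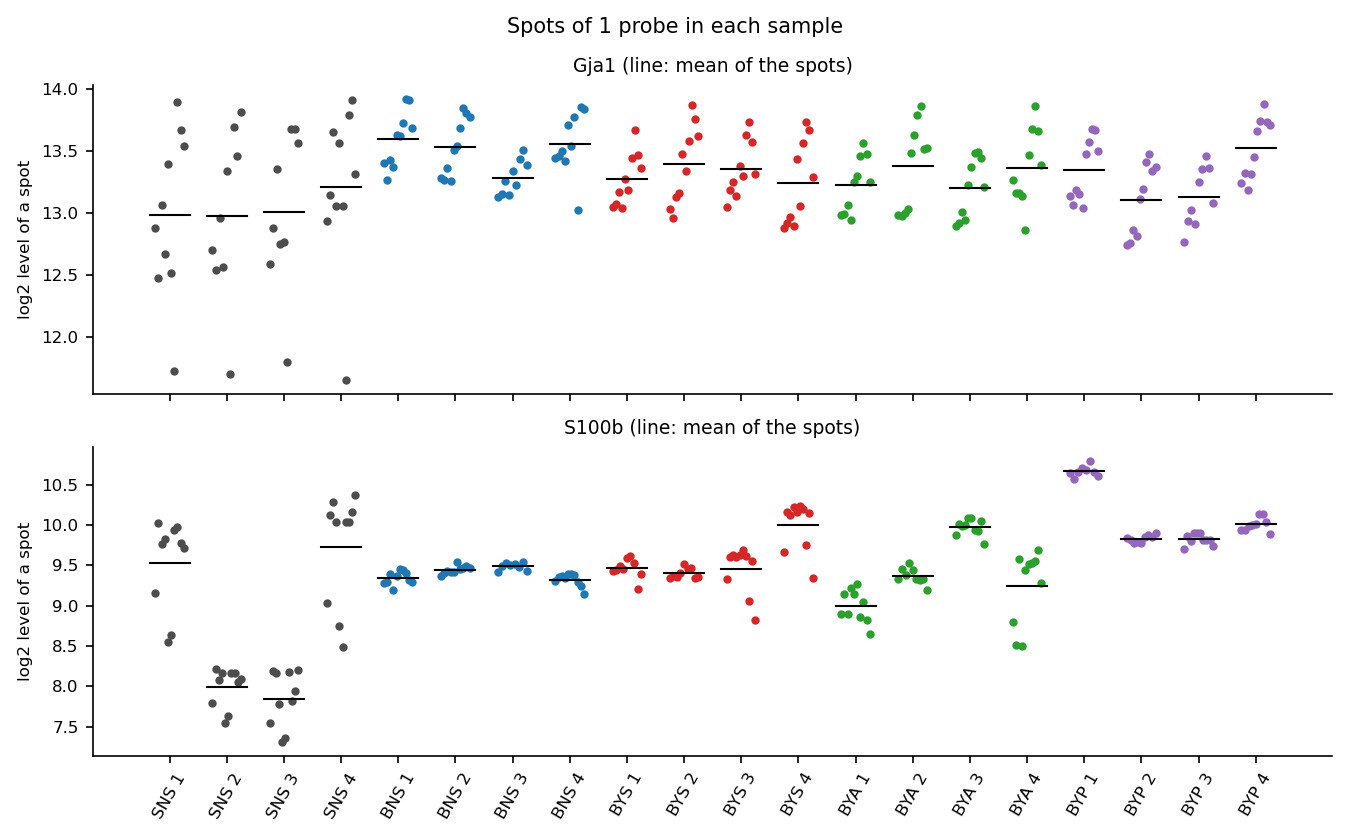
Log2 level (vertical axis) of each of the 10 spots of 1 probe of Gja1 and of S100b in the 20 samples (horizontal axis). The line is the mean of the spots, and outlier spots are left out. In Gja1 1 spot lies under 12 in each SNS sample, and in S100b the spots of SNS 2 and SNS 3 lie together near 8.

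Gjb6 encodes connexin 30, the second astrocytic connexin, and none of its differences passed. Its levels were 12.29, 11.92, 11.32 and 12.06 in SNS, 12.21, 11.35, 11.67 and 12.41 in BNS, and 12.125, 11.79, 11.51 and 11.59 in BYS. BYA measured 12.26, 11.74, 11.70 and 12.05, and BYP 12.18, 12.78, 11.76 and 12.50. The spread within a condition, an SD of 0.27 to 0.49, was about as large as the widest gap between means, 0.55 ± 0.25 from BYS to BYP, with an adjusted p of 0.57.

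Aqp4, the water channel of astrocyte endfeet, was averaged over 3 probes. It measured 12.34, 12.01, 11.96 and 12.03 in SNS, 11.88, 11.86, 12.15 and 11.80 in BNS, and 12.41, 11.96, 12.47 and 12.66 in BYS. BYA measured 12.39, 12.21, 11.45 and 12.15, and BYP 12.25, 12.23, 12.17 and 12.12. BYS stood 0.45 ± 0.17 above BNS, with an adjusted p of 0.59, and the groups overlapped. The probes did not give 1 answer: the brightest, A_44_P561166, differed by 0.02 ± 0.17, and the other 2 by 0.66 ± 0.16 and 0.68 ± 0.41, with adjusted p of 0.29 and 0.84 when fitted by themselves. The low value of BYA 3 came from 1 probe, A_64_P036063, which read 8.59 there against 10.125 to 11.65 in the other 19 samples. On the other 2 probes BYA 3 read 15.31 and 10.45, within the range of the rest.

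S100b, a calcium-binding protein of mature astrocytes and of some oligodendrocyte-lineage cells, gave different answers on its 2 probes. The gene value rests on the 10-spot probe A_43_P15530, because the other had no usable value in SNS 1 and SNS 2. That probe measured 9.53, 7.99, 7.85 and 9.73 in SNS, 9.34, 9.45, 9.49 and 9.32 in BNS, and 9.46, 9.40, 9.45 and 10.001 in BYS. BYA measured 8.997, 9.37, 9.97 and 9.24, and BYP 10.67, 9.83, 9.83 and 10.01. SNS 2 and SNS 3, which lie on different arrays, stood apart from every other sample, and 3 of the 4 SNS samples were well above background. BYP was 1.31 ± 0.35 higher than SNS, with an adjusted p of 0.0096, which became 0.075 with the array as a random block. The second probe, A_64_P109327, measured 14.97 and 14.80 in the 2 SNS samples that could be used. Its lowest and highest values were 14.91 and 15.16 in BNS, 14.99 and 15.50 in BYS, 14.95 and 15.21 in BYA, and 14.86 and 15.35 in BYP. On it BYP differed from SNS by 0.27 ± 0.15, with an adjusted p of 0.17. All 4 BYP samples lay above all BNS samples on the first probe, 0.68 ± 0.35 with an adjusted p of 0.31, and the second probe gave 0.12 ± 0.12 with an adjusted p of 0.66.

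**Figure D4:**
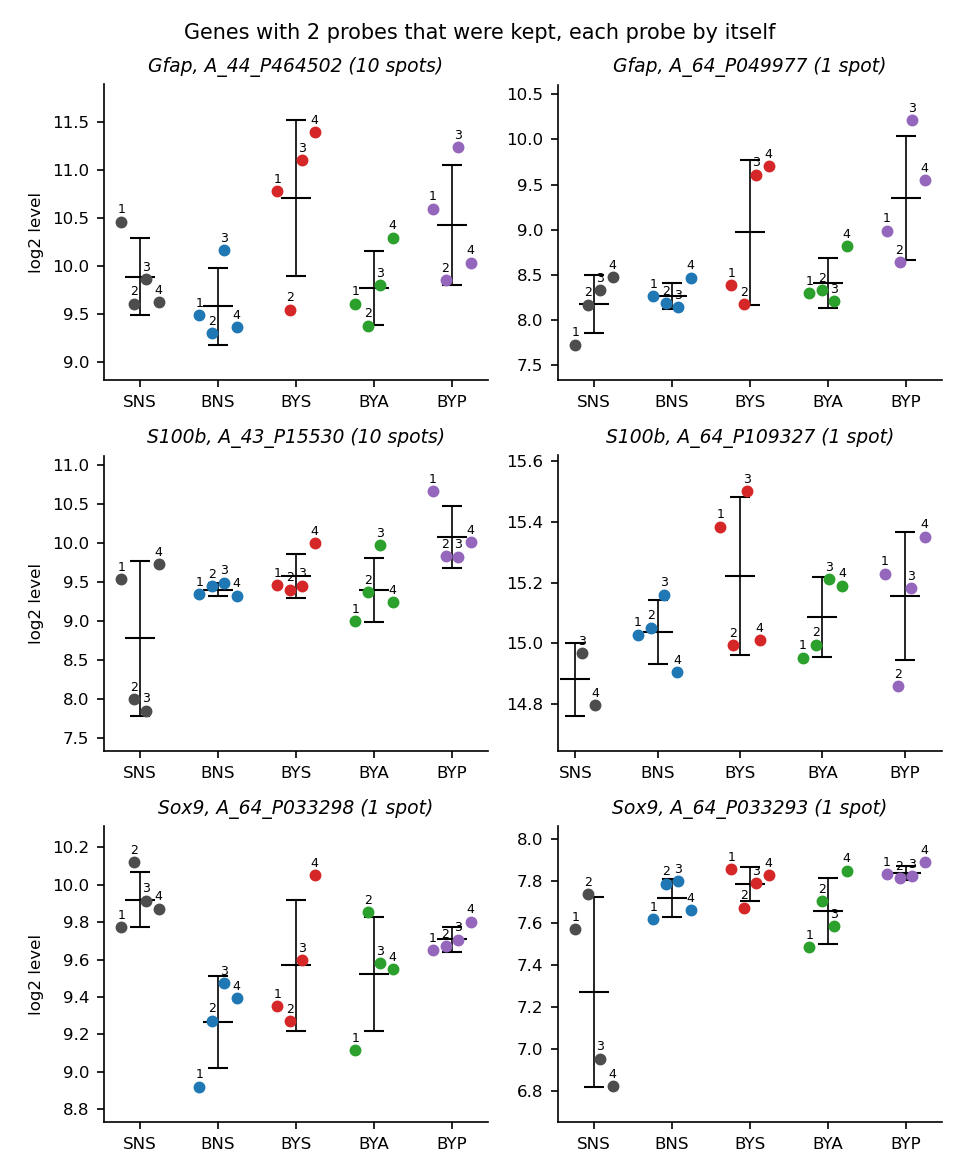
Log2 level (vertical axes) on each kept probe of Gfap, S100b and Sox9 in every sample, with the mean and 1 SD of a condition. Samples are numbered by replicate, and SNS 1 and SNS 2 have no value on the single-spot S100b probe. The 2 Gfap probes place BYS 3, BYS 4 and BYP 3 highest, while the 2 probes of Sox9 place BNS on opposite sides of SNS, and the low values of SNS 2 and SNS 3 appear on only 1 S100b probe, the other having no value for SNS 2.

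Aldh1l1, a folate-metabolising enzyme that marks astrocytes throughout the brain, was the 1 member that lay lower in all 4 betamethasone conditions than in SNS. It measured 11.20, 10.97, 10.60 and 11.28 in SNS, 10.62, 10.77, 10.51 and 10.76 in BNS, and 10.87, 10.94, 10.57 and 10.80 in BYS. BYA measured 10.49, 10.58, 11.22 and 10.69, and BYP 10.82, 10.76, 10.41 and 10.73. SNS 3 lay within the ranges of BNS, BYS and BYP, and BYA 3, at 11.22, lay within that of SNS. BNS lay 0.35 ± 0.16 below SNS, with an adjusted p of 0.11, which became 0.034 without SNS 3, at 0.48 below, and 0.043 without BYA 3.

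Sox9 is the transcription factor that commits precursors to the glial lineage and stays on in astrocytes. As the mean of its 2 probes it measured 8.67, 8.93, 8.43 and 8.35 in SNS, 8.27, 8.53, 8.64 and 8.53 in BNS, and 8.60, 8.47, 8.69 and 8.94 in BYS. BYA measured 8.30, 8.78, 8.58 and 8.70, and BYP 8.74, 8.74, 8.76 and 8.85. The 4 BYP samples lay above the 4 BNS samples, 0.28 ± 0.13 with an adjusted p of 0.26. The 2 probes printed above went in opposite directions between SNS and BNS. The brighter one, A_64_P033298, measured 9.78, 10.12, 9.92 and 9.87 in SNS and 8.92, 9.27, 9.47 and 9.40 in BNS, a fall of 0.66 ± 0.16 with an adjusted p of 0.0051. The one at the start codon, A_64_P033293, was not well above background in any SNS sample and was in 3 of 4 BNS, 4 of 4 BYS, 1 of 4 BYA and 2 of 4 BYP samples. It read 7.57, 7.74, 6.95 and 6.82 in SNS, where the samples of one array lay above those of the other, and 7.62, 7.79, 7.80 and 7.66 in BNS. SNS 2 thus lay within the range of BNS. The fitted difference was 0.44 ± 0.15, with an adjusted p of 0.038, but part of the values of both groups are at background, so its size is uncertain. Of all single probes 28.7% passed from SNS to BNS and 29.2% from SNS to BYP. In the mean of its probes Sox9 did not pass any test.

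Counted over the 9 members, the calls lay in the comparisons with SNS. From SNS to BNS 1 of 9 rose, Gja1, where 28.6% of all genes changed. From SNS to BYS 2 rose, Gja1 and Lcn2, beside 27.1% of all genes. From SNS to BYP 3 rose, Gfap, S100b and Lcn2, beside 28.9%. From SNS to BYA none passed, beside 31.3%, and Gja1 had an unadjusted p under 0.05. The counts of members from SNS to BNS and to BYS, 1 and 2 of 9, are near the share of all genes, as is that to BYP, 3 of 9. All 4 comparisons use the same SNS samples.

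The comparisons that held prenatal betamethasone fixed called no member with limma. The share of all genes called was 0.0293% from BNS to BYS, 0% from BYS to BYA, 0.0351% from BYS to BYP, 0.158% from BYA to BYP, 0.117% from BNS to BYA and 1.5% from BNS to BYP. At an unadjusted p under 0.05 the members numbered 4 from BNS to BYS, where 6.92% of all genes had such a p, 1 from BYS to BYA beside 8.07%, 1 from BYS to BYP beside 8.5%, 2 from BYA to BYP beside 13.6%, 0 from BNS to BYA beside 13.1% and 5 from BNS to BYP beside 17.8%. The 4 from BNS to BYS were Gfap, Aqp4, Cd44 and Lcn2, and the 5 from BNS to BYP were Gfap, Cd44, Lcn2, Sox9, all higher, and Gja1, lower. All 4 values of one condition lay above all 4 of the other for 5 of 9 members from BNS to BYP, namely Gfap, S100b, Cd44, Lcn2 and Sox9, each higher in BYP, where 6.28% of all genes did so in that direction. For Gfap and for S100b this held on only 1 of the 2 probes. The median of the 9 differences from BNS to BYP was 0.39, beside 0.0042 over all genes, with 8 of 9 above 0. From BYS to BYA the median was -0.18, with 1 of 9 above 0, beside -0.0028 over all genes. The comparisons with BNS share its samples, and those with BYS share BYS.

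**Figure D5:**
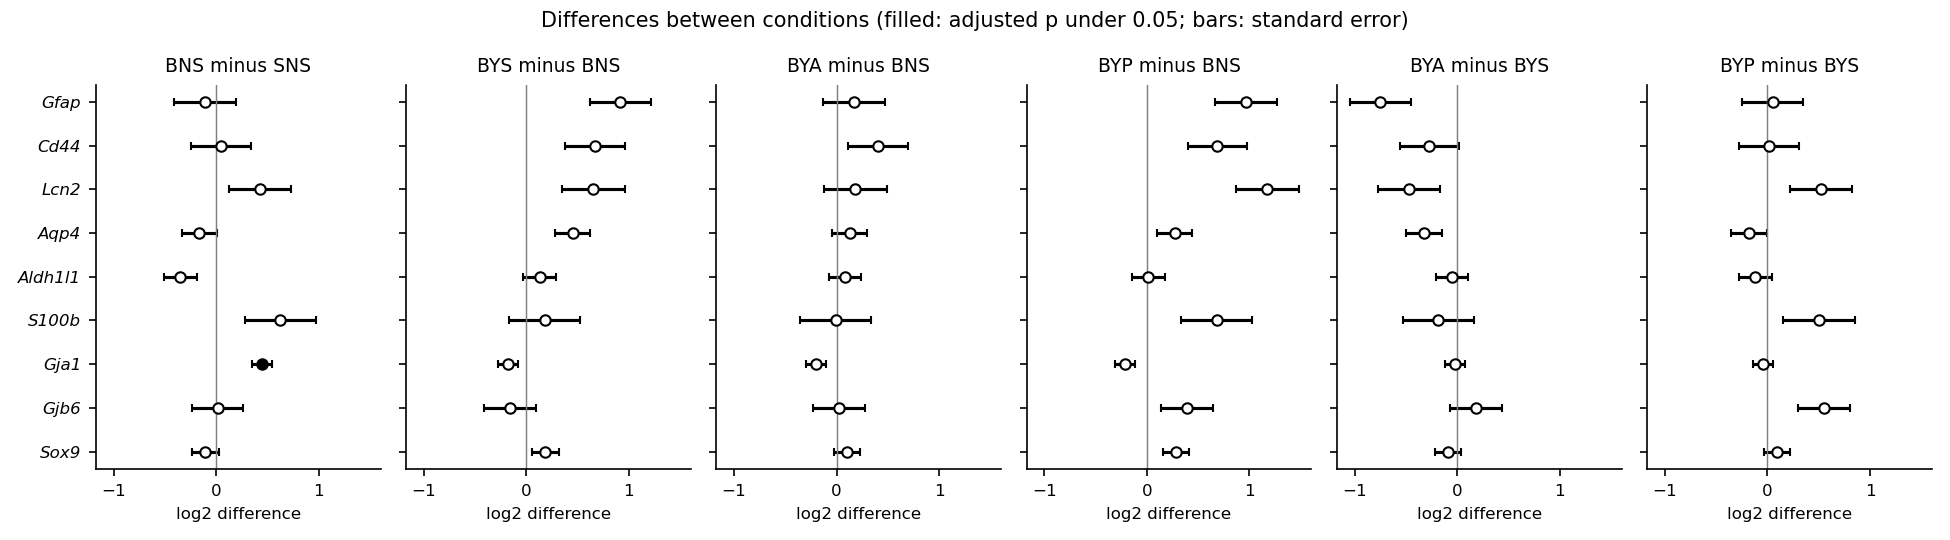
Log2 difference (horizontal axis) of the 9 tested members in 6 comparisons, with the standard error as bars. Filled points passed at an adjusted p under 0.05, which only Gja1 from SNS to BNS did in these 6. Gfap, Cd44 and Lcn2 lie to the right of 0 in BYS and in BYP against BNS, with differences from 0.65 to 1.17.

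Other astrocyte genes were read from lists by role. Of 19 tested genes of mature astrocytes, 4 rose and 2 fell from SNS to BNS, and 4 rose and none fell from SNS to BYP. Of all genes 15.1% rose and 13.5% fell in the first of these and 15.4% rose and 13.5% fell in the second. None passed between conditions that shared betamethasone. At an unadjusted p under 0.05 the list had 1 of 19 from BNS to BYS, beside 6.92% of all genes. From BNS to BYP it had 8 of 19, beside 17.8%. In that comparison 15 of 19 lay above 0, with a median of 0.24 beside 0.0042 over all genes. Slc7a10, a transporter of D-serine and other small amino acids, measured 11.49, 11.27, 11.73 and 11.87 in SNS and 12.42 to 12.74 in BNS, a rise of 0.95 ± 0.12 with an adjusted p of 2.3e-05. It stood at 12.38 or more in every BYS, BYA and BYP sample, so that all 16 betamethasone samples lay above all SNS samples. Slc1a2, the main glutamate transporter of astrocytes, went the other way in BNS. It measured 12.10, 11.89, 12.03 and 11.76 in SNS and 11.04, 11.40, 11.30 and 10.91 in BNS, a fall of 0.79 ± 0.23 with an adjusted p of 0.017, which became 0.056 without BNS 4. In BYP it read 12.01, 11.93, 11.86 and 11.91, within the range of SNS and 0.77 ± 0.23 above BNS with an adjusted p of 0.091. Over the 5 conditions Slc1a2 did not pass limma's F test, with an adjusted p of 0.055. Its levels in BYS and BYA are not given here. Fgfr3, a growth factor receptor of astrocytes, also fell from SNS to BNS, by 0.34 ± 0.09 with an adjusted p of 0.010. Atp1b2 of the same list lay above SNS by 0.56 ± 0.13 in BYS, 0.71 ± 0.13 in BYA and 0.82 ± 0.13 in BYP. Its adjusted p were 0.0038, 0.00055 and 0.00016.

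Among 11 tested factors that drive or mark gliogenesis, 2 rose and 1 fell from SNS to BNS, near the 28.6% of all genes that changed. Those named by the rule were Id1, an inhibitor of differentiation downstream of BMP signals, at 0.48 ± 0.12 with an adjusted p of 0.0062, and Zbtb20, a factor of astrocyte development, which fell by 0.64 ± 0.21 with an adjusted p of 0.028, or 0.096 without BNS 1. From SNS to BYP 3 of the 11 rose and 1 fell, beside 15.4% and 13.5% of all genes. In that comparison Id1 rose by 0.57 ± 0.12 and Sox2 by 0.54 ± 0.13, with adjusted p of 0.0019 and 0.0055. From SNS to BYS Id1 rose by 0.52 ± 0.12, with an adjusted p of 0.0036, and Smad1 by 0.41 ± 0.13, with an adjusted p of 0.025. Smad1 also rose from SNS to BYA, by 0.42 ± 0.13 with an adjusted p of 0.020. In limma's F test over the 5 conditions Zbtb20 and Smad1 did not pass, with adjusted p of 0.090 and 0.058. From BNS to BYP none of the 11 factors passed. In that comparison 5 of 11 had an unadjusted p under 0.05, beside 17.8% of all genes, and 10 of 11 lay above 0. Stat3, which acts on the Gfap gene, was 0.98 ± 0.29 higher in BYP than in SNS, with an adjusted p of 0.017. It read 11.91, 12.12, 12.34 and 12.08 in BYP against 10.98, 11.34, 11.44 and 11.34 in BNS, a difference of 0.84 ± 0.29 with an adjusted p of 0.14. The SNS samples were split, at 11.63 and 11.63 on one array and 10.77 and 10.50 on the other. Without SNS 4 the Stat3 difference between BYP and SNS had an adjusted p of 0.063. In limma's F test over the 5 conditions Stat3 did not pass, with an adjusted p of 0.078. BYS 3 and BYS 4, at 11.97 and 12.39, again stood above BYS 1 and BYS 2, at 10.96 and 10.98.

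The reactive astrocyte lists held 9 tested genes called pan-reactive, 9 called A1 and 4 called A2, names that come from mouse astrocytes after inflammation or loss of blood supply. From BNS to BYP 1 pan-reactive and 1 A1 gene rose, Cxcl10 and Fkbp5, beside 0.65% of all genes that rose in that comparison. Cxcl10, a chemokine that draws T cells, measured 7.67, 7.66, 7.24 and 7.76 in BNS, 7.93, 7.69, 9.10 and 8.40 in BYS, 8.26, 8.27, 7.41 and 8.09 in BYA, and 8.85, 9.99, 11.11 and 8.60 in BYP. It was 2.06 ± 0.40 higher in BYP than in BNS, with an adjusted p of 0.019. With the array as a random block the adjusted p was 0.18, and it was 0.66 when channels were only scaled to 1 median. The BNS levels of Cxcl10 lay in the range of the dim Serpina3n probe, 7.23 to 7.89 over the 20 samples. How many of them were well above background is not given here, so the size of the difference is uncertain. Fkbp5, a co-chaperone of the glucocorticoid receptor that glucocorticoids induce in many cell types, measured 10.95, 11.001, 11.03 and 11.13 in BNS, 11.28, 11.58, 11.88 and 12.23 in BYS, and 12.16, 12.04, 12.57 and 12.39 in BYP. It was 1.26 ± 0.24 higher in BYP than in BNS, with an adjusted p of 0.017. That p was 0.66 with median scaling, 0.086 with the array as a random block, 0.12 in the methods' t-test, and just above the threshold, at up to 0.0501, without BNS 2 or BNS 4. In BYA it measured 12.30, 12.49, 10.96 and 12.23, so that BYA 3 alone lay at the level of BNS, and BYA was 0.97 ± 0.24 above BNS with an adjusted p of 0.12.

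Against SNS the reactive lists held more calls, as did all genes, of which 15.4% rose from SNS to BYP and 15.1% from SNS to BNS. From SNS to BYP 3 of 9 pan-reactive genes rose, Cxcl10, Timp1 and Hspb1, a small heat shock protein, 4 of 9 A1 genes rose, among them Gbp2 and Serping1, and 3 of 4 A2 genes rose, Cd14, Emp1 and S100a10. From SNS to BNS 1 of 9 pan-reactive genes rose, S1pr3, 1 of 9 A1 genes, Serping1, and 1 of 4 A2 genes, S100a10. Timp1 and S1pr3 did not pass limma's F test over the 5 conditions, with adjusted p of 0.13 and 0.12. Serping1, the inhibitor of complement component C1, measured 9.67, 9.61, 10.04 and 9.80 in SNS and 11.31, 10.97, 11.73 and 11.71 in BNS, a rise of 1.65 ± 0.25 with an adjusted p of 0.00012. In BYS, BYA and BYP its means were 11.60, 11.42 and 11.62, so that the samples with spasms overlapped those of BNS and lay above all of SNS. Vim, the second intermediate filament of reactive astrocytes, lay 0.25 ± 0.20 higher in BYP than in BNS, with an adjusted p of 0.56, and Nes 0.07 ± 0.15, with an adjusted p of 0.86.

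Markers of the other cells that the dissected tissue could hold were measured in the same samples. From BNS to BYP and from BNS to BYS none of the tested markers passed: 8 of microglia, 6 of vessels, 10 of oligodendrocytes, 5 of neurons in general, 10 of arcuate neurons, 5 of tanycytes and ependyma, 3 of choroid plexus, 2 of pituitary and 2 of red blood cells. The mean log2 level of the 8 microglial markers lay between 10.30 and 10.38 in BNS, against 10.27 and 10.51 in BYS, 10.26 and 10.55 in BYA, and 10.29 and 10.58 in BYP. The mean covers markers on both sides of BNS. At an unadjusted p under 0.05 there were 3 of 8 from BNS to BYS, beside 6.92% of all genes, and 3 of 8 from BNS to BYP, beside 17.8%. Itgam, an integrin of microglia and other myeloid cells, lay between 8.16 and 8.29 in BNS, and all BYS and BYP samples lay above it, at 8.44 to 9.25 and 8.51 to 9.29, with adjusted p of 0.70 and 0.20. C1qa, of the complement C1 complex, lay between 12.11 and 12.22 in the 3 BNS samples with a value, and at 12.38 to 12.87 in BYS and 12.41 to 12.66 in BYP, with adjusted p of 0.14 and 0.13. Cx3cr1 was 0.49 ± 0.16 lower in BYS than in BNS, with an adjusted p of 0.55, and P2ry12, 0.65 ± 0.19 lower in BYP, with an adjusted p of 0.086. The mean of the 5 tanycyte and ependyma markers lay between 10.275 and 10.73 in BNS, against 10.30 and 10.62 in BYS, and 10.23 and 10.64 in BYP. In SNS both lay higher on average, at 10.54 ± 0.075 (SD) and 10.696 ± 0.195, than in BNS, at 10.35 ± 0.035 and 10.49 ± 0.209. The pituitary hormone genes Gh1, Prl and Tshb were not bright enough to be tested. From SNS to BYP, where 15.4% of all genes rose and 13.5% fell, 1 of 8 microglial markers rose, Itgam, and 2 fell, Cx3cr1 and P2ry12. In the same comparison 1 of 10 oligodendrocyte markers rose, Olig2, with 6 of 10 above 0, 1 of 5 neuronal markers rose and 1 fell, Syt1 and Elavl4, 1 of 6 vessel markers fell, Pdgfrb, and 2 of 5 tanycyte and ependyma markers fell, Foxj1 and Col23a1. Of the 6 vessel markers 4 fell and none rose from SNS to BYS, beside 12.6% of all genes that fell. From SNS to BYA 3 fell and none rose, beside 15.4%, and from SNS to BNS 1 rose and none fell. The part of these cells in the results was not tested.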

How the data were processed

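RNA of 20 arcuate nuclei had been labelled with Cy3 or Cy5 and hybridised to 11 Agilent rat arrays with 2 animals of 1 condition on 9 of them. The deposited values were the spot intensity and local background of each channel as Agilent Feature Extraction wrote them (11.5.1.1 per the file headers, 10.7.3.1 per the labels), not yet normalised between arrays, and of the other columns the deposited files' flags were used. In 2 arrays 1 channel belonged to no sample here, and its 82 columns were not used.

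In limma 3.58.1 (R 4.3.3) intensities were background-corrected with normexp (offset 50) and quantile-normalised over the 20 channels. Spots marked as outliers (1.18% of values) were dropped. The filter on dim probes asked, in every one of the 4 samples of some condition, for a share of 0.5 or more of the spots to be marked well above background. Probes of a gene with no missing value were averaged. All conditions were fitted together with the dye as a covariate, and p-values were adjusted by Benjamini-Hochberg over all genes of a comparison, with a threshold of 0.05. The script was tested on simulated data. The members, gene lists and rules were chosen with earlier results of these data known. All members were named. Of the other lists up to 3 genes per list and direction were named, those called with the largest change and no overlap between groups, and the 5 genes most like Gfap by Pearson's r. Timp1, Bcl3, Stat3, Slc1a2, Vim and Nes values beyond these rules, and the promoter letters, were chosen after seeing the data. Accessions of 61.4% of the probes matched a RefSeq symbol, and the files' names were kept otherwise. Promoters were from RefSeq, build GRCr8. No probe coordinates are given, since the build they refer to was not settled. Replicate numbers did not pair samples.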

Additional observations from a re-analysis of the deposited data

Results flagged for a closer look

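In 45 sets of 4 samples, 9 genes in 5 conditions, the highest or lowest sample stood apart from the other 3 in 2, and chance marks about 1 in 20. S100b in BYS had its highest sample, BYS 4 at 10.001, far above the next at 9.46, a gap of 0.899 of the range. Gja1 in SNS had its highest sample, SNS 4 at 13.21, above the next at 13.01, a gap of 0.860 of the range.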

How the results depend on the processing

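The number of members called moved with the processing. From SNS to BNS, 1 member passed, and 0 did when channels were scaled to 1 median or on the processed signals, against 2 with the slide as a random block, with the brightest probe of a gene or with single probes. From SNS to BYS, 2 passed, and 0 did with arrays as random blocks, 5 with slides, and 1 with median scaling, processed signals, no dye covariate, the brightest probe, the median of spots, the fit of those 8 samples alone or the methods' t-test after adjustment. From SNS to BYA, 0 passed, against 2 with the slide and 1 with the median of spots or the methods' t-test unadjusted. From SNS to BYP, 3 passed, against 1 with the array, 6 with the slide, 1 with the brightest probe and 0 with the methods' t-test after adjustment. Between betamethasone conditions 0 passed. Here median scaling called 1 from BYS to BYP, the slide called 1 from BYA to BYP and 3 from BNS to BYP, and the methods' t-test unadjusted called 1 from BNS to BYS, 1 from BYA to BYP, 1 from BNS to BYA and 5 from BNS to BYP. Over the 5 conditions 3 passed, against 1 with median scaling, 1 with the array, 5 with the slide and 5 with single probes. The cause was not tested. The replicate block called 1, Gfap, from BNS to BYP (adjusted p = 0.046), where the replicate numbers do not pair the samples, with a mean correlation of 0.0031 over 40 same-numbered pairs.

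Leaving out 1 sample at a time gave 1 to 2 members from SNS to BNS, 0 to 3 to BYS, 0 to 2 to BYA, 2 to 5 to BYP, 0 to 1 from BNS to BYP, 0 to 0 in the other comparisons and 1 to 4 over the 5 conditions. The call of Gja1 from SNS to BYS was lost in 12 of 20 such fits, with adjusted p up to 0.128. Without single samples Cd14 and Hspb1 from SNS to BYP and S1pr3 and S100a10 from SNS to BNS lost their calls, with adjusted p up to 0.098, 0.066, 0.087 and 0.10. Timp1 from SNS to BYP had an adjusted p of 0.15 without BYP 3. Gja1 from SNS to BYP reversed to -0.33 under median scaling. Of 2051 values of single genes under an alternative, 1805 kept their direction and side of the threshold, 210 lost a call, 35 gained one and 1 reversed. Under median scaling the median difference of all genes was -0.14 from SNS to BNS, -0.13 to BYS and -0.11 to BYP, in place of -0.04, -0.03 and -0.04. It moved the share of higher among called genes from 52.9% to 29.8%, from 53.6% to 66.0% and from 53.4% to 32.3%. To BYA that share moved from 50.6% to 71.2%. The correlation within arrays was 0.365 and within slides -0.128, and a negative value makes that fit more lenient. Single-spot probes and dim probes such as those of Lcn2 in SNS, Serpina3n and Sox9 limit the precision, as does the number of arrays.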
